A study of Homo sapiens with 12 samples.

Results

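The genes described here are 30 genes of the G1/S transition and of DNA replication, chosen by name and read from both deposited count tables, in which they are 30 of 60617 gene IDs. These genes, the lists set beside them and the motifs were chosen with earlier results of these data known. Total RNA was sequenced from 769-P, a clear cell renal carcinoma cell line grown in RPMI1640 with fetal bovine serum, in 4 groups of 3 libraries. The libraries labelled siDRAIC were set against siDRAIC-NC in the first experiment, and those labelled sihnRNPA2B1 against sihnRNPA2B1-NC in the second. An siRNA is a short double-stranded RNA that lowers the transcript it matches. DRAIC is a long non-coding RNA that the study took up for its link to outcome in several cancers, and hnRNPA2B1 is an RNA-binding protein. All 12 libraries share the cell line and its medium, no other genotype is given, and neither the time after transfection nor the cell density is given in the sources used here. The labels do not say whether replicates are separate cultures, so each p-value reflects the variation among these libraries alone, which may be technical.

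A cell commits to S phase when G1 cyclins, cyclin E among them, and their kinases release E2F transcription factors from the retinoblastoma protein. E2F then drives the genes for replication. In G1, CDC6 and CDT1 load the MCM helicase ring onto origins; in S phase CDC45 and the GINS complex join it to form the active helicase, and primase, the polymerases, the sliding clamp and the clamp loader copy the strands behind it. Ribonucleotide reductase and thymidylate synthase supply the nucleotides, and histone chaperones rebuild chromatin on the new DNA. The level of these transcripts in a culture is widely used as a mark of how many of its cells are cycling. In bulk RNA, fewer cells expressing a gene and less RNA of it per cell cannot be told apart.

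Many of these genes hold an E2F motif at their promoter, and 4 promoters that hold it are shown: those of GINS2 and PCLAF, which are among the 3 genes that differed most between the control groups, and those of UHRF1 and UNG, which carry the strongest fall and the single rise after hnRNPA2B1 siRNA. Each is the 250 bases before a RefSeq start on GRCh38.p14, read 5′ to 3′ on the gene's strand, with the E2F motif in capitals.
GINS2, chr16:85688955-85689204, minus strand: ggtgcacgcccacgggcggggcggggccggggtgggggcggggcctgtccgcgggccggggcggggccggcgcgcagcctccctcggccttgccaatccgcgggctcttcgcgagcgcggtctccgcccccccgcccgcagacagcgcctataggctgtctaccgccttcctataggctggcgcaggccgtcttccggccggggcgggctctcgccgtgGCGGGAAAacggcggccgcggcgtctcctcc
PCLAF, chr15:64381442-64381691, minus strand: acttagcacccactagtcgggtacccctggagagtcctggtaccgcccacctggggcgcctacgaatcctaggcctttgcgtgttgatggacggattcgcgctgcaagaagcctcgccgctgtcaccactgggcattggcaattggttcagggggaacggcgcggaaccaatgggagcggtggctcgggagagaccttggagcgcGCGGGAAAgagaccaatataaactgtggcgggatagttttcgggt
UHRF1, chr19:4909251-4909500, plus strand: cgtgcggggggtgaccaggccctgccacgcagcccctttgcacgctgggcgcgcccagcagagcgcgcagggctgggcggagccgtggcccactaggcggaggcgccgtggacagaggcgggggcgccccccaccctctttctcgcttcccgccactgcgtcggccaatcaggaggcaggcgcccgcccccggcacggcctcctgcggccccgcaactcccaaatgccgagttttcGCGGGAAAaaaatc
UNG, chr12:109097922-109098171, plus strand: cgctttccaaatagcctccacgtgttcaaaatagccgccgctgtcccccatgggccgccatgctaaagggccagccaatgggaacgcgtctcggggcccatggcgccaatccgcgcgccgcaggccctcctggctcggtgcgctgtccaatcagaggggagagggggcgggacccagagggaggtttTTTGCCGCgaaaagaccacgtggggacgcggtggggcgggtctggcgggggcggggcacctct
The motif searched was TTTCCCGC, TTTGGCGC, TTTCGCGC or TTTGCCGC on either strand, in windows from 250 bases before to 50 after each start. It begins 31 bases before the start shown in GINS2, 45 before it in PCLAF, 14 before it in UHRF1 and 63 before it in UNG. RefSeq had a window for 25 of the 30 genes, and MCM4, MCM5, CCNE2, RPA2 and POLD3 had no entry. Of those 25 genes, 16 (64.0%) held the motif in at least 1 window and CCNE1, CDC45, CHAF1B, FEN1, PRIM1, RFC2, RRM1, RRM2 and SLBP did not, against 6.43% of 11563 tested genes and 3.99% of 27305 genes with a window. Another 85 listed replication and G1/S genes held it in 22 of 71 (31.0%), and 30 listed genes of G2 and mitosis in 2 of 25 (8.0%). The CCAAT box, the letters CCAAT on either strand, was in 17 of the 25 (68.0%) and in 42.7% of tested genes. The CHR element of mitotic promoters, TTTGAA or TTCGAA on either strand, was in 3 of those 25 genes, in 15.5% of tested genes and in 19 of 25 (76.0%) of the G2 and mitosis genes. Promoters with several windows had more chances of a match, and a match is a description of the letters, not of binding.

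Counts per library ran from 30798303 to 42760528. Levels are given in CPM. This unit is the count relative to the library's total, here scaled by the trimmed mean of M-values (TMM) over the 12 libraries. HNRNPA2B1 was at 287 ± 15.8 CPM (mean ± SD, n = 3, as in all such values) under its siRNA and at 424 ± 15.5 in its control, a log2 fold change of -0.56 ± 0.052 (± SE throughout) with an adjusted p of 2.16e-09 by edgeR's quasi-likelihood test. DRAIC had 3, 6 and 0 counts in the 3 libraries labelled siDRAIC against 2, 1 and 2 in siDRAIC-NC, which is too few to show a knockdown, so the first experiment is named by its labels only. Of the 11 renal epithelial and carcinoma markers, CA9 was the one at 0 counts in 3 of the groups, and the list summed to between 2490 and 4333 CPM. Markers of immune and endothelial cells summed to at most 1.53 and 0.915 CPM in any library, and those of fibroblasts to at most 17.7 CPM. Mitochondrial transcripts took 8.08% to 8.91% of counts in siDRAIC-NC and 9.16% to 10.9% in the libraries labelled siDRAIC. Their share was 6.05% to 6.27% in the sihnRNPA2B1-NC libraries and 7.53% to 7.87% under hnRNPA2B1 siRNA. They were higher in every siRNA library than in its own controls, and their part in the results was not tested.

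The widest difference in these genes lay between the control groups, not between either siRNA group and its own control. All 30 were called higher in siDRAIC-NC than in sihnRNPA2B1-NC at an adjusted p below 0.05, by edgeR's test with Benjamini-Hochberg adjustment over 17091 genes. The share of all tested genes called higher there was 26.6%. In each of the 30 genes the lowest siDRAIC-NC library was above the highest sihnRNPA2B1-NC library, which held for 28.6% of tested genes. Their median log2 fold change was 1.88 against 0.019 for all tested genes, and 27 of the 30 had a value of 1 or more, as did 15.8% of tested genes. With any 1 library left out, this median stayed between 1.79 and 2.02. Control group, experiment and count table change together here, so they cannot be told apart. Other measures moved between the same groups: the 11 renal markers summed to 3268 to 4333 CPM in siDRAIC-NC and 2490 to 2654 in sihnRNPA2B1-NC, and 4 hepatocyte markers to 195 to 372 and 52.5 to 57.1 CPM. Of these 4, TTR was at 0 counts and 3 were below 1 CPM in each group. The part of these measures, and of the mitochondrial share, in the difference was not tested.

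**Figure D1:**
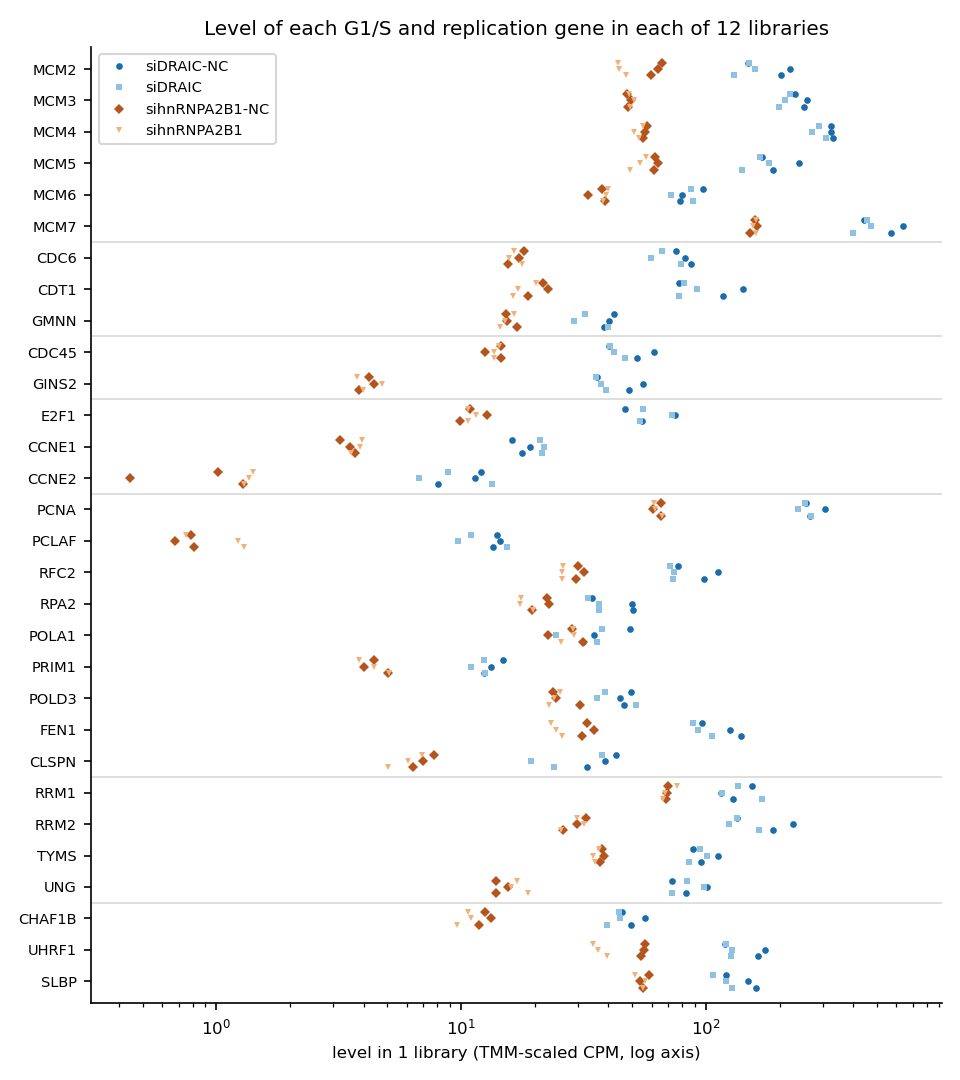
Level of each of the 30 genes in each of the 12 libraries, in TMM-scaled CPM on a log axis. Each point is 1 library, the colours mark the 4 groups and the grey lines separate the roles. The blue points of the DRAIC experiment lie to the right of the orange points of the hnRNPA2B1 experiment in every row but that of POLA1, while the siRNA and control points of 1 experiment lie close together.

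The MCM2 to MCM7 proteins form the ring-shaped replicative helicase. MCM2 was at 148, 221 and 203 CPM in siDRAIC-NC, 149.8, 158 and 130.0 in siDRAIC, 66.3, 63.6 and 59.9 in sihnRNPA2B1-NC and 43.8, 44.2 and 47.3 in sihnRNPA2B1. The sihnRNPA2B1 libraries were the lowest and did not overlap their controls, whereas the libraries labelled siDRAIC overlapped theirs. MCM3 was at 231, 260.0 and 252 CPM in siDRAIC-NC, 220.4, 212 and 198 in siDRAIC, 47.5, 49.5 and 48 in sihnRNPA2B1-NC and 48.6, 51 and 48.9 in sihnRNPA2B1. MCM4 was at 326, 323 and 330.4 CPM in siDRAIC-NC, 289, 273 and 310.4 in siDRAIC, 57.6, 56.2 and 55.5 in sihnRNPA2B1-NC and 55.1, 50.9 and 53.1 in sihnRNPA2B1. For both, the 3 siDRAIC libraries lay just below siDRAIC-NC without overlap, and the control groups stood 5.13-fold and 5.78-fold apart. MCM5 was at 169.9, 240.0 and 189 CPM in siDRAIC-NC, 166, 181 and 141 in siDRAIC, 61.7, 63.8 and 61.6 in sihnRNPA2B1-NC and 56.9, 53.8 and 48.8 in sihnRNPA2B1. MCM6 was at 97.6, 80.2 and 78.7 CPM in siDRAIC-NC, 86.8, 71.9 and 88.7 in siDRAIC, 37.6, 32.8 and 38.9 in sihnRNPA2B1-NC and 39.8, 38.9 and 38 in sihnRNPA2B1. MCM6 had the smallest control difference of the ring, 2.35-fold, and neither siRNA comparison passed for it. MCM7 was at 443, 641 and 572 CPM in siDRAIC-NC, 456, 473 and 400.2 in siDRAIC, 159, 161 and 152 in sihnRNPA2B1-NC and 159.6, 156 and 161 in sihnRNPA2B1, with a 3.51-fold control difference. Over the 6 subunits the log2 control difference ran from 1.23 ± 0.13 (adjusted p = 1.56e-06) to 2.53 ± 0.10 (adjusted p = 1.47e-10).

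Licensing of origins rests on CDC6 and CDT1, which load the MCM ring, and on geminin (GMNN), which binds CDT1 and blocks a second loading. CDC6 was at 75.8, 82 and 87.1 CPM in siDRAIC-NC, 66.4, 59.7 and 78.9 in siDRAIC, 18.1, 17.3 and 15.6 in sihnRNPA2B1-NC and 16.4, 15.7 and 17.8 in sihnRNPA2B1. CDT1 was at 77.3, 142 and 117 CPM in siDRAIC-NC, 81.4, 91.6 and 77.7 in siDRAIC, 21.6, 22.7 and 18.8 in sihnRNPA2B1-NC and 20.2, 17 and 16.4 in sihnRNPA2B1. GMNN was at 42.2, 40.3 and 38.2 CPM in siDRAIC-NC, 32, 28.9 and 39.8 in siDRAIC, 15.3, 15.3 and 16.9 in sihnRNPA2B1-NC and 16.4, 15 and 14.4 in sihnRNPA2B1. Control libraries of the DRAIC experiment were 4.81-fold higher for CDC6, 5.33-fold for CDT1 and 2.54-fold for GMNN. Helicase activation was covered by CDC45 and by the GINS subunit GINS2. CDC45 was at 40.3, 61.6 and 52.3 CPM in siDRAIC-NC, 40.8, 42.2 and 46.6 in siDRAIC, 14.6, 12.5 and 14.5 in sihnRNPA2B1-NC and 14.3, 13.6 and 13.7 in sihnRNPA2B1. GINS2 was at 35.8, 55.4 and 48.7 CPM in siDRAIC-NC, 35.7, 37.2 and 39.1 in siDRAIC, 4.19, 4.39 and 3.81 in sihnRNPA2B1-NC and 3.75, 4.77 and 3.98 in sihnRNPA2B1. GINS2 had an 11.3-fold control difference, and both of its siRNA groups overlapped their controls.

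Of the G1/S regulators, E2F1 is the transcription factor and CCNE1 and CCNE2 are the E cyclins that activate CDK2. E2F1 was at 46.9, 74.7 and 55.1 CPM in siDRAIC-NC, 55.1, 72.5 and 53.8 in siDRAIC, 10.9, 12.8 and 9.85 in sihnRNPA2B1-NC and 10.6, 11.4 and 10.7 in sihnRNPA2B1. CCNE1 was at 16.2, 19.2 and 17.7 CPM in siDRAIC-NC, 21.1, 21.9 and 21.5 in siDRAIC, 3.2, 3.5 and 3.67 in sihnRNPA2B1-NC and 3.92, 3.87 and 3.54 in sihnRNPA2B1. It was the one member whose 3 siDRAIC libraries all lay above siDRAIC-NC. CCNE2 was at 12.1, 11.4 and 8.07 CPM in siDRAIC-NC, 8.81, 6.7 and 13.4 in siDRAIC, 1.01, 0.444 and 1.28 in sihnRNPA2B1-NC and 1.41, 1.36 and 1.29 in sihnRNPA2B1. In sihnRNPA2B1-NC these levels of CCNE2 came from 31, 17 and 46 counts. Its 11.6-fold control difference therefore rests on a low side of few counts, and its exons share 1629 bases with INTS8 on the other strand.

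At the fork, PCNA is the sliding clamp, PCLAF a small protein that binds it, and RFC2 a subunit of the loader that places it. PCNA was at 257, 306 and 266 CPM in siDRAIC-NC, 253, 238 and 269 in siDRAIC, 65.6, 61 and 65.3 in sihnRNPA2B1-NC and 61.6, 61.7 and 66.1 in sihnRNPA2B1. PCLAF was at 14, 14.4 and 13.5 CPM in siDRAIC-NC, 11, 9.75 and 15.4 in siDRAIC, 0.785, 0.679 and 0.807 in sihnRNPA2B1-NC and 0.75, 1.23 and 1.29 in sihnRNPA2B1. RFC2 was at 76.9, 113 and 98.4 CPM in siDRAIC-NC, 71.5, 73.9 and 73.5 in siDRAIC, 29.9, 31.6 and 29.4 in sihnRNPA2B1-NC and 26.1, 25.9 and 25.9 in sihnRNPA2B1. PCLAF had the largest control difference of the 30, 18.4-fold, with 24, 26 and 29 counts in the sihnRNPA2B1-NC libraries. RPA2, a subunit of the protein that coats single-stranded DNA, was at 34.3, 49.8 and 50.2 CPM in siDRAIC-NC, 33, 36.5 and 36.7 in siDRAIC, 22.5, 22.9 and 19.4 in sihnRNPA2B1-NC and 17.6, 17.4 and 19.6 in sihnRNPA2B1. POLA1, the catalytic subunit of the polymerase that starts each strand, was at 49.1, 34.9 and 31.5 CPM in siDRAIC-NC, 37.7, 24.3 and 35.8 in siDRAIC, 28.5, 22.7 and 31.4 in sihnRNPA2B1-NC and 28.7, 29 and 25.6 in sihnRNPA2B1. PRIM1, the primase subunit that makes its RNA primers, was at 14.8, 13.3 and 12.3 CPM in siDRAIC-NC, 12.4, 11 and 12.6 in siDRAIC, 4.41, 4.02 and 5.01 in sihnRNPA2B1-NC and 3.84, 4.42 and 5.09 in sihnRNPA2B1. POLA1 had the smallest control difference, 1.4-fold (log2 0.48 ± 0.19, adjusted p = 0.0453), and PRIM1, its partner in the same complex, a 3.01-fold one. The POLA1 call was lost in 10 of 20 alternative fits, with adjusted p from 0.000501 to 0.203, and the other 29 genes kept theirs in all 20. The POLA1 call was lost without siDRAIC-NC replicate 1, siDRAIC replicate 3, sihnRNPA2B1-NC replicate 1 or 2, or any 1 sihnRNPA2B1 library. Limma-voom, the replicate block and the fit of the 6 control libraries alone did not call POLA1 either.

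POLD3, an accessory subunit of DNA polymerase delta, was at 49.3, 44.5 and 46.4 CPM in siDRAIC-NC, 38.8, 35.8 and 52 in siDRAIC, 23.7, 24.5 and 30.7 in sihnRNPA2B1-NC and 25.3, 24 and 22.8 in sihnRNPA2B1. FEN1, the nuclease that trims Okazaki fragment flaps, was at 96.3, 126 and 139 CPM in siDRAIC-NC, 88.6, 93.1 and 106 in siDRAIC, 32.7, 34.9 and 31.3 in sihnRNPA2B1-NC and 23.4, 24.4 and 25.8 in sihnRNPA2B1. CLSPN, the adaptor through which ATR activates CHK1 at stalled forks, was at 43.1, 38.8 and 32.7 CPM in siDRAIC-NC, 37.6, 19.3 and 24 in siDRAIC, 7.75, 7.0 and 6.37 in sihnRNPA2B1-NC and 6.92, 6.05 and 5.03 in sihnRNPA2B1. POLD3 differed 1.78-fold between the controls, which was less than FEN1 at 3.66-fold and CLSPN at 5.42-fold. In nucleotide supply, RRM1 is the large and RRM2 the small subunit of ribonucleotide reductase, and TYMS makes thymidylate. RRM1 was at 154, 116 and 129 CPM in siDRAIC-NC, 136, 117 and 170.2 in siDRAIC, 69.9, 69.7 and 68.6 in sihnRNPA2B1-NC and 76.1, 67.9 and 66.8 in sihnRNPA2B1. RRM2 was at 134, 228 and 188 CPM in siDRAIC-NC, 135, 124 and 166 in siDRAIC, 32.4, 29.7 and 26 in sihnRNPA2B1-NC and 29.7, 31.7 and 25.5 in sihnRNPA2B1. TYMS was at 88.7, 112 and 95.7 CPM in siDRAIC-NC, 94.9, 101 and 85.7 in siDRAIC, 37.5, 38.5 and 36.9 in sihnRNPA2B1-NC and 36.6, 34.4 and 35.3 in sihnRNPA2B1. Both reductase subunits belong to 1 enzyme, and the log2 control difference was 2.64 ± 0.18 for RRM2 (6.23-fold) and 0.94 ± 0.14 for RRM1 (1.92-fold). TYMS, at 2.62-fold, shares 967 exon bases with ENOSF1 on the other strand. UNG, the glycosylase that removes uracil from DNA, was at 72.9, 101 and 82.7 CPM in siDRAIC-NC, 83.6, 98.5 and 72.7 in siDRAIC, 13.8, 15.6 and 13.9 in sihnRNPA2B1-NC and 17, 16 and 18.8 in sihnRNPA2B1. Its control difference was 5.93-fold.

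CHAF1B, a subunit of the chaperone CAF-1 that places histones on new DNA, was at 45.4, 56.2 and 49.5 CPM in siDRAIC-NC, 44.3, 44.4 and 39.5 in siDRAIC, 12.6, 13.3 and 11.9 in sihnRNPA2B1-NC and 10.7, 10.9 and 9.6 in sihnRNPA2B1. UHRF1, which reads half-methylated DNA and recruits the maintenance methyltransferase DNMT1, was at 119, 174 and 164 CPM in siDRAIC-NC, 121, 128 and 126 in siDRAIC, 56.3, 55.8 and 54.3 in sihnRNPA2B1-NC and 34.7, 36.3 and 39.5 in sihnRNPA2B1. SLBP, which binds the stem-loop of replication-dependent histone mRNAs, was at 120.4, 149 and 159.9 CPM in siDRAIC-NC, 107, 121 and 128 in siDRAIC, 58.5, 54 and 55.4 in sihnRNPA2B1-NC and 51.3, 56.4 and 55.4 in sihnRNPA2B1. Their control differences were 4.0-fold, 2.75-fold and 2.56-fold, each with its groups apart.

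**Figure D2:**
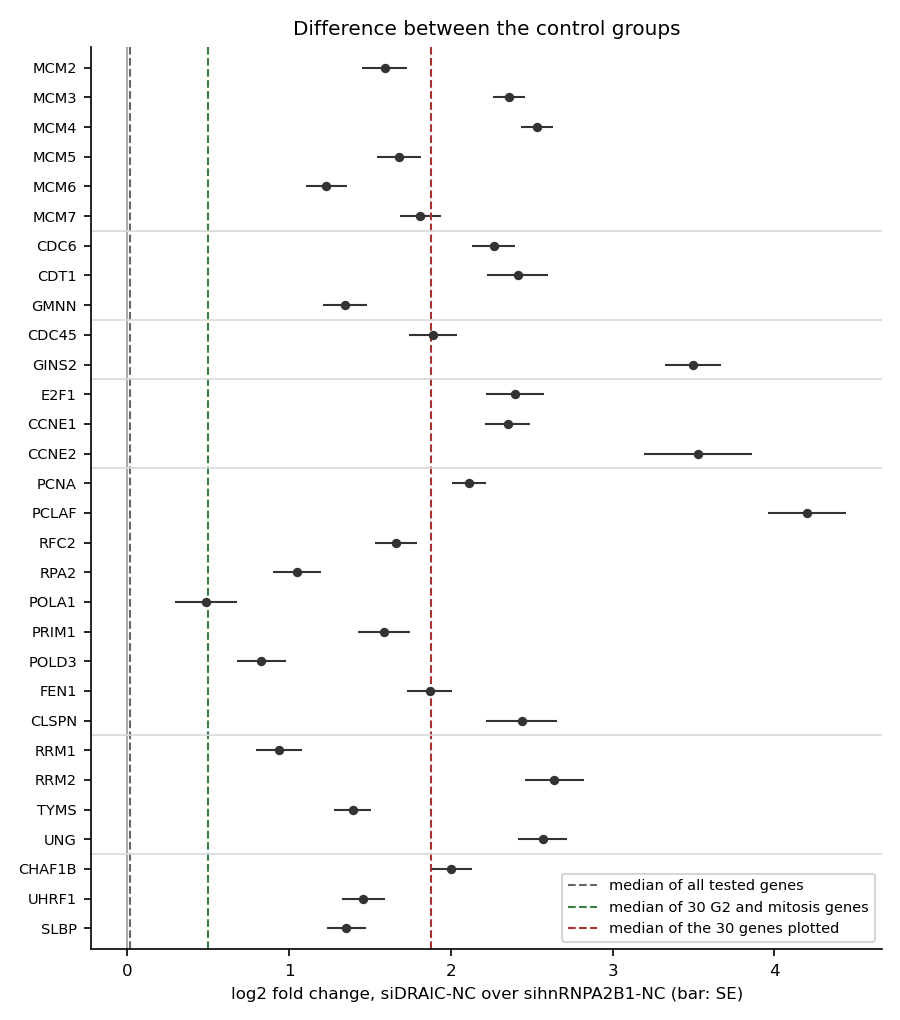
Log2 fold change of each of the 30 genes between the control groups, siDRAIC-NC over sihnRNPA2B1-NC, with its SE as a bar. Dashed lines mark the medians of all tested genes (0.019), of the 30 G2 and mitosis genes (0.50) and of the 30 genes plotted (1.88). Every point lies right of 0, from POLA1 at 0.48 to PCLAF at 4.20.

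Genes of the same processes that were not among the 30 differed less uniformly between the controls. The 30 and these lists were chosen with earlier results known, so this contrast is a description only. Of 83 tested genes of this wider list, 50 were called higher in siDRAIC-NC and 14 lower, with a median log2 fold change of 0.70. Over all tested genes 26.6% were called higher and 25.0% lower. Polymerase, clamp loader and Okazaki genes gave 14 higher and 1 lower of 18, and the helicase activation and fork scaffold genes 10 higher and 0 lower of 13. The prereplication complex genes, which include ORC1 to ORC6, gave 5 higher and 1 lower of 9 with a median of 0.42. Among RB, E2F, cyclin and CDK genes 10 were higher and 6 lower of 22, with a median of 0.30. Of 30 G2 and mitosis genes 16 were higher and 0 lower, with a median of 0.50. Of 6 tested inhibitors of the cyclin-dependent kinases and G1 brakes, 1 was called higher and 4 lower, and these 5 were named after their values were seen. CDKN2C, which inhibits CDK4 and CDK6, was higher by 2.69 ± 0.19 on the log2 scale, while CDKN1A (p21) had a log2 fold change of -0.87 ± 0.11, CDKN1B (p27) of -0.64 ± 0.11, CDKN2B (p15) of -0.80 ± 0.21 and CDKN1C (p57) of -2.50 ± 0.78. Each of these 5 had an adjusted p below 0.05 by edgeR's test, the highest being 0.014.

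The position of the 30 genes in each library followed the same order. Summed over the 30 genes, levels ran from 3132 to 3928 CPM in siDRAIC-NC and from 3003 to 3053 CPM in the libraries labelled siDRAIC. The sihnRNPA2B1-NC libraries summed to 987 to 1015 CPM and those under hnRNPA2B1 siRNA to 925 to 941 CPM. As the median over the genes of log2 CPM minus the gene's mean over 12 libraries, the siDRAIC-NC libraries stood at 0.84, 1.23 and 1.06 and the siDRAIC libraries at 0.72, 0.76 and 0.79. The sihnRNPA2B1-NC libraries stood at -0.80, -0.84 and -0.85 and the sihnRNPA2B1 libraries at -1.08, -1.07 and -0.99. No siDRAIC library reached the lowest siDRAIC-NC library by this measure, nor did any sihnRNPA2B1 library reach its controls. These medians are taken across genes within a library and are not the gene-by-gene changes given next. The median of those changes was -0.21 for siDRAIC, with 4 of the 30 estimates above 0. For hnRNPA2B1 siRNA it was -0.030, with 11 of the 30 above 0.

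**Figure D3:**
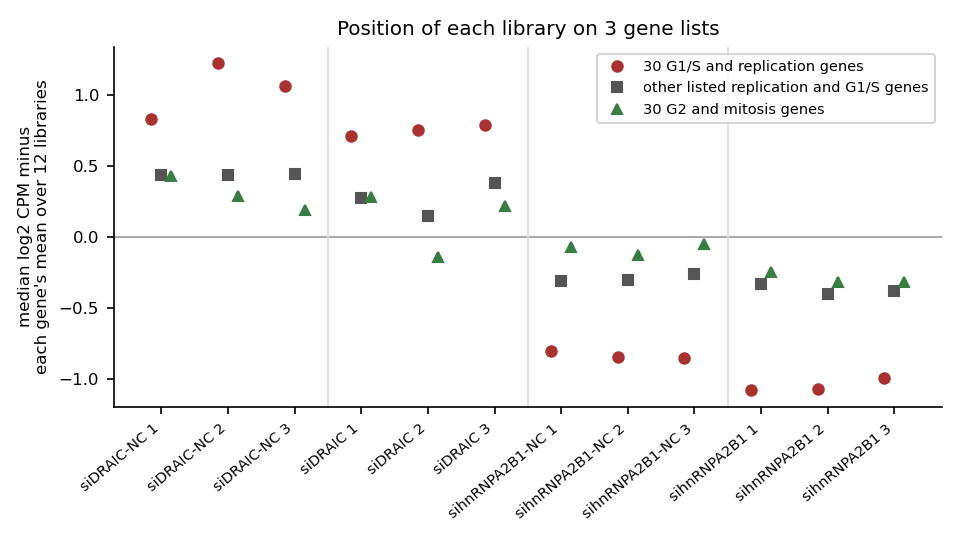
Median over 3 gene lists of log2 CPM minus each gene's mean over the 12 libraries, by library, with grey lines between the groups. The 30 genes (red circles) separate the experiments by more than the other listed replication and G1/S genes (grey squares) or the 30 G2 and mitosis genes (green triangles). Their highest value is 1.23 in siDRAIC-NC replicate 2 and their lowest -1.08 in sihnRNPA2B1 replicate 1. All 3 lists were chosen with earlier results known.

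In the libraries labelled siDRAIC, most of the 30 genes had lower estimates than in siDRAIC-NC, but none passed the test without the replicate pairing. Fitted with the replicate number as a block, CLSPN was called down, as given below. No gene of the 30 was called in edgeR's test over 15986 genes, in which 0.131% of genes were called down and 0.582% up. At an unadjusted p below 0.05, 0 of the 30 passed, against 1713 of the 15986 genes. DESeq2 and limma-voom, also fitted with no block, called 0 as well. Of the 30 estimates 26 were below 0, as were 8077 of all tested genes, and the median log2 fold change was -0.21 against -0.0046 for all tested genes. By role, all 6 MCM genes, all 3 licensing genes, both helicase activation genes, all 9 fork genes and all 3 chromatin genes had estimates below 0. The exceptions were CCNE1 at 0.32 ± 0.18, RRM1 at 0.11 ± 0.18, E2F1 at 0.081 ± 0.21 and UNG at 0.029 ± 0.19. Fibroblast markers summed to 2.77 to 6.25 CPM in siDRAIC-NC and 10.2 to 17.7 CPM in the libraries labelled siDRAIC. Of these 6 markers, 4 were below 1 CPM in both of these groups. COL1A2 and LUM were at 0 counts in both, and COL3A1 in siDRAIC. The part of these markers was not tested.

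The most negative estimates were those of CLSPN at -0.48 ± 0.24 (adjusted p = 0.503), CDT1 at -0.38 ± 0.21 (adjusted p = 0.542) and RFC2 at -0.36 ± 0.17 (adjusted p = 0.495), all by edgeR's test. Groups did not overlap for MCM3, MCM4, RFC2 and CHAF1B on the low side, 4 of the 30 against 6.22% of tested genes, and for CCNE1 on the high side, 1 of the 30 against 8.51%. Spread between replicates was wide in this experiment, with a biological coefficient of variation of 24.2%. In data simulated with no replicate pairing, 3% of genes changed 1.5-fold were called. Those genes were drawn at random from all tested genes, whose median SE was 0.24 against 0.18 for the 30. The 3% is therefore not the rate for these 30 genes. Same-numbered libraries of the DRAIC experiment deviated together over all tested genes, which was not checked over the 30 alone. With the replicate number as a block CLSPN was called down at a log2 fold change of -0.51 (adjusted p = 0.0323), where 3.58% of all genes were called down. Without siDRAIC-NC replicate 1, the library lowest of its group for 20 of the 30 genes, CDT1 was called down at -0.58 (adjusted p = 0.0393), where 3.23% of genes were. With the block and an added correction for GC content CLSPN, CDT1, RFC2 and MCM2 were called down at -0.57, -0.34, -0.33 and -0.31, where 6.51% of genes were.

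After hnRNPA2B1 siRNA, 7 of the 30 genes fell, 1 rose and 22 did not pass the test. The share of all 15710 tested genes called down was 15.4% and called up 15.1%. The median log2 fold change of the 30 was -0.030 against 0.0075 over all tested genes, and 19 estimates were below 0. Groups did not overlap on the low side for 8 of the 30 (MCM2, MCM4, MCM5, RFC2, FEN1, TYMS, CHAF1B and UHRF1), against 21.5% of tested genes, and on the high side for 2 (CCNE2 and UNG), against 21.0%. With so many genes called in this comparison, nothing particular to the 30 is read from the count of 7.

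**Figure D4:**
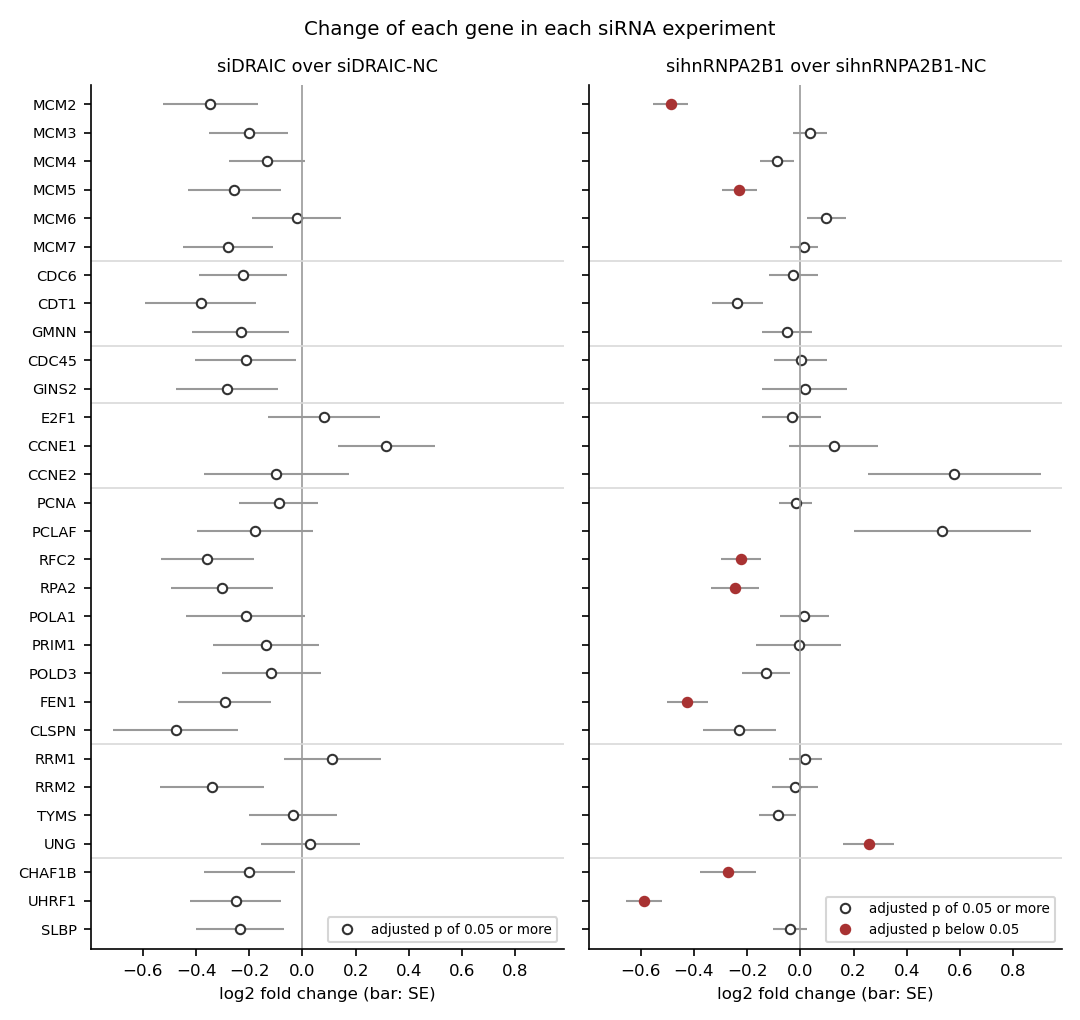
Log2 fold change of each of the 30 genes with its SE in the siDRAIC (left) and sihnRNPA2B1 (right) comparison, each over its own control group; filled points passed an adjusted p of 0.05. No point is filled on the left, where the fit had no replicate block and 26 lie below 0. On the right 7 filled points lie below 0, led by UHRF1 at -0.59 and MCM2 at -0.49, and 1 above it, UNG at 0.26.

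UHRF1 (ENSG00000276043, GRCh38 chr19:4903080-4962154, plus strand) fell the most, from 55.5 ± 1.03 to 36.8 ± 2.48 CPM. This was a 1.5-fold decrease, with a log2 fold change of -0.59 ± 0.068 and an adjusted p of 1.08e-07 by edgeR's test. MCM2 (ENSG00000073111, chr3:127598223-127622436, plus strand) fell from 63.3 ± 3.2 to 45.1 ± 1.93 CPM, with a log2 fold change of -0.49 ± 0.066 (adjusted p = 1.49e-06). FEN1 (ENSG00000168496, chr11:61792637-61797244, plus strand) fell from 33 ± 1.85 to 24.5 ± 1.2 CPM, with a log2 fold change of -0.43 ± 0.077 (adjusted p = 9.6e-05). These 3 kept their calls whichever library was left out, with the highest adjusted p at 1.54e-05 for UHRF1, 9.63e-05 for MCM2 and 0.00227 for FEN1. MCM2 shares 1113 exon bases with AC023593.1 and FEN1 166 with TMEM258, each on the other strand. Smaller falls were called for MCM5 (-0.23 ± 0.066, adjusted p = 0.00861), RFC2 (-0.22 ± 0.075, adjusted p = 0.023), RPA2 (-0.25 ± 0.090, adjusted p = 0.0379) and CHAF1B (-0.27 ± 0.10, adjusted p = 0.0483). Of these 4, RPA2 was the one whose libraries overlapped between the groups, by replicate 3 of each. UNG was the single gene called up, at 0.26 ± 0.10 (adjusted p = 0.0404).

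These smaller calls did not hold in every fit. MCM5 was lost without sihnRNPA2B1 replicate 3 (adjusted p = 0.0808). RFC2 was lost without any 1 library other than sihnRNPA2B1-NC replicate 3, with adjusted p up to 0.0878, and CHAF1B without any 1 library other than that one, up to 0.185. RPA2 was lost without replicate 1 or 2 of either group, up to 0.157, and UNG without replicate 1 of either group, sihnRNPA2B1 replicate 3 or sihnRNPA2B1-NC replicate 3, up to 0.209. CDT1, at -0.24 ± 0.10 (adjusted p = 0.0607), was called down without sihnRNPA2B1 replicate 1 or sihnRNPA2B1-NC replicate 3 (adjusted p = 0.0246 and 0.0096), and CCNE2 was called up at 0.92 without the latter (adjusted p = 0.0481). DESeq2 and the fit with no low-count filter did not call CHAF1B (adjusted p = 0.0707 and 0.0837), RPA2 (0.053 and 0.0503) or UNG (0.069 and 0.0563), and limma-voom did not call CHAF1B (0.0506). When all 12 libraries shared 1 estimate of the spread, UHRF1 alone of the 8 was called, while the estimates hardly moved and the SE grew: MCM2 was at -0.49 ± 0.14, FEN1 at -0.43 ± 0.14 and UNG at 0.26 ± 0.15. With correction for GC content CHAF1B was at -0.24 (adjusted p = 0.0623) and RFC2 at -0.16 (adjusted p = 0.0609), neither of them called.

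Within the MCM ring, MCM2 and MCM5 fell after hnRNPA2B1 siRNA, while MCM3 at 0.036 ± 0.064, MCM4 at -0.088 ± 0.064, MCM6 at 0.10 ± 0.074 and MCM7 at 0.013 ± 0.053 did not pass; the differences between subunits were not tested. Expressed per kilobase of exon and as a share of the 6 subunits' sum, MCM2 went from 14.8% ± 0.511 to 11.1% ± 0.493 and MCM7 from 41.0% ± 0.732 to 43.5% ± 0.556 (SD, n = 3). By the same measure MCM2 was at 11.8% ± 1.13 in siDRAIC-NC and 10.9% ± 0.623 in siDRAIC. MCM4 took 14.4% ± 1.69 of the sum in siDRAIC-NC and 9.25% ± 0.0918 in sihnRNPA2B1-NC, and MCM6 6.45% ± 1.54 and 10.1% ± 0.986. MCM7 had the highest level per length of the 6 in all 4 groups, at 126, 101, 35.9 and 36.2 CPM per kilobase. PCNA was the highest of the 30 per length, at 188, 172, 43.5 and 42.9 CPM per kilobase in the same order. No test was run on these shares and levels.

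In the other gene lists, 29 of 81 listed replication and G1/S genes fell after hnRNPA2B1 siRNA and 9 rose, with a median log2 fold change of -0.14. Over all tested genes 15.4% were called down and 15.1% up. Of 29 G2 and mitosis genes 13 fell and 0 rose, with a median of -0.16. CCND1, which encodes cyclin D1 and acts earlier in G1, changed by -0.51 ± 0.048 (adjusted p = 2.3e-09). AURKB at -0.62 ± 0.061, CDCA8 at -0.60 ± 0.062 and BIRC5 at -0.59 ± 0.062 encode the kinase aurora B, borealin and survivin of the chromosomal passenger complex, and each had an adjusted p of at most 1.85e-08. In the siDRAIC comparison 0 of 82 and 0 of 30 genes of the same lists were called by edgeR with no replicate block. At an unadjusted p below 0.05 there were 7 and 3, and their medians were -0.16 and -0.29. With the block 1404 of all tested genes were called in place of 114, and its counts for these lists are not given here. The counts of 0 therefore do not show that these lists were unchanged.

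The siRNA comparisons do not share controls, so their changes can be set side by side. Both estimates were below 0 for 18 of the 30 genes and both above 0 for 3, namely CCNE1, RRM1 and UNG. Another 8 were below 0 in siDRAIC and above it in sihnRNPA2B1, and E2F1 was the reverse. In the test of the difference itself, over 12 libraries, 36 of 17091 genes (0.211%) were called and 0 of the 30 by edgeR, DESeq2 or limma-voom. At an unadjusted p below 0.05, PCLAF was the only one of the 30, with a difference of -0.75 ± 0.32 (unadjusted p = 0.0354 and adjusted p = 0.507). The median difference was -0.17 over the 30 and -0.046 over all tested genes. For UHRF1 the changes were -0.25 ± 0.17 and -0.59 ± 0.068, a difference of 0.30 ± 0.18, and for MCM2 -0.35 ± 0.18 and -0.49 ± 0.066, a difference of 0.10 ± 0.19. Neither gene was therefore shown to respond to 1 siRNA and not the other. All of these values are from fits with no replicate block. With the block the difference was called for 258 genes, and again for 0 of the 30.

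How the replicates of a group spread moved with the GC content of the transcripts, which ran from 36.9% in CCNE2 to 64.9% in CDT1 among the 30. The deviation of a gene from its group mean had a correlation with GC content of -0.76 in siDRAIC-NC replicate 1, 0.69 in replicate 2 and 0.54 in replicate 3 (across 30 genes that share those libraries). Over 16886 tested genes the same values were -0.47, 0.32 and 0.28. In siDRAIC the 30 genes gave -0.16, 0.83 and -0.73, in sihnRNPA2B1-NC -0.29, 0.63 and -0.61, and in sihnRNPA2B1 0.16, -0.16 and -0.07 (n = 30 in each). The log2 fold change itself had a correlation with GC content of -0.14 for siDRAIC, -0.52 for hnRNPA2B1 siRNA and -0.033 between the controls over the 30 genes, and of 0.016, -0.13 and 0.19 over all tested genes with a GC value. Under GC-corrected offsets, all 30 genes stayed called between the controls, and UHRF1, MCM2, FEN1, RPA2, MCM5 and UNG stayed called after hnRNPA2B1 siRNA.

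**Figure D5:**
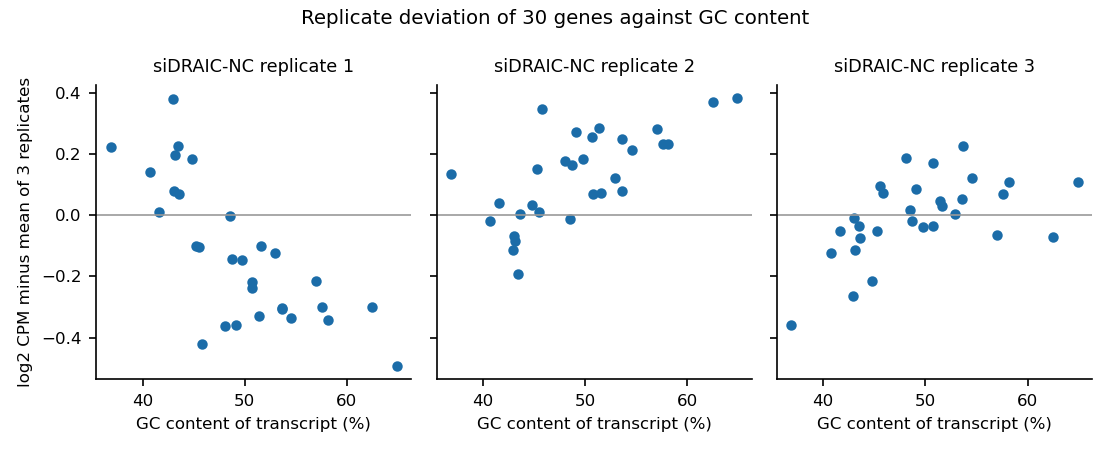
Deviation of each of the 30 genes from its mean over the 3 siDRAIC-NC replicates (log2 CPM) against the GC content of its transcript (%), 1 panel a replicate and 1 point a gene. In replicate 1 the genes of high GC content lie below 0, and in replicate 2 most lie above it. The correlations are -0.76, 0.69 and 0.54.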

How the data were processed

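RNA-seq of 12 libraries was deposited by the authors as 2 tables of whole-number read counts per Ensembl gene, 1 for each experiment. The submitters' processing notes name fastp 0.23.2, STAR 2.7.10a, StringTie, DESeq2 and hg38. No counting tool, annotation or strand setting is given in the sources used here. Counts were used as deposited. Of 60617 gene IDs, 60261 were paired with a symbol, and all 30 genes passed the low-count filter in every comparison.

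Tests were run in R 4.3.3 with edgeR 4.0.16 (filterByExpr with a minimum count of 10, TMM factors, robust quasi-likelihood fit), two-sided, with Benjamini-Hochberg adjustment over all tested genes and calls at an adjusted p below 0.05. Each siRNA comparison used its own 6 libraries, and the control comparison and the difference of effects used all 12. Alternatives were DESeq2 1.42.0, limma-voom (limma 3.58.1), RLE size factors, no low-count filter and a filter at 1 CPM in 3 libraries. Others left out each library in turn or added a replicate block. Each siRNA comparison was also fitted with all 12 libraries, and the control comparison with its 6 control libraries only. GC-corrected offsets (lowess with a span of 0.3) were added after seeing the data. Library totals were 30798303 to 42760528 counts in both experiments together. The spread between replicates, as edgeR's biological coefficient of variation, was 24.2% in the DRAIC and 6.42% in the hnRNPA2B1 experiment. On simulated counts edgeR recovered 75% of genes changed 3-fold in the siDRAIC comparison (15986 genes) and 88% in the sihnRNPA2B1 comparison (15710 genes). For genes changed 1.5-fold it recovered 3% and 63%. The changed genes were drawn at random from all tested genes, with no replicate pairing simulated. Of the calls, 8.24% and 4.43% were false.

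Pairing was checked by correlating, over all tested genes, how libraries deviated from their group's mean. Same-numbered libraries of the DRAIC experiment correlated at 0.49, 0.23 and 0.28, other pairs at -0.41 to 0.10, so the numbers were taken to pair these libraries. No correlation over 0.1 was found for same numbers in the hnRNPA2B1 experiment.

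The genes, lists and motifs were chosen with earlier results of these data known. All 30 genes are named, with values per library for those called in at least 1 comparison. From the other lists, up to 4 called genes with the smallest p in each siRNA comparison are named, together with both siRNA targets. The 5 kinase inhibitors named in the control comparison fall outside this rule and were chosen after their values were seen. Gene positions are from GENCODE on GRCh38 and promoters from RefSeq on GRCh38.p14. Protein sequences were not used here.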

Additional observations from a re-analysis of the deposited data

Results flagged for a closer look

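The effect of siRNA differed between the 2 experiments for 36 of 17091 tested genes by edgeR's test of the difference, and none of the 30 G1/S and replication genes was among them. The largest difference by size among the 30 was that of PCLAF, -0.75 ± 0.32 on the log2 scale (adjusted p = 0.507), from 24, 26 and 29 counts in sihnRNPA2B1-NC and 26, 49 and 50 in sihnRNPA2B1.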

How the results depend on the processing

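All 30 genes kept their sign between the controls in all 20 alternatives, with 29 or 30 called. In the siDRAIC comparison the number of all genes called, 114, was 381 with DESeq2, 250 with GC-corrected offsets, 665 with 12 libraries in 1 fit, 45 with limma-voom, 520 with no low-count filter, 61 with the strict filter and 9 to 1035 with 1 library left out. With the replicate block it was 1404, and 2094 with the block and GC correction. Members called down, 0 as reported, were 1 with the block, 4 with the block and GC correction and 0 to 1 with 1 library left out. The median of the 30 genes ran from -0.26 to -0.18 with 1 library left out.

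In the sihnRNPA2B1 comparison 283 genes were called with 12 libraries in 1 fit, in place of 4781, and 1 of the 30 genes down. With the replicate block 6 of the 30 were down and 0 up (CHAF1B and UNG were lost), and the block with GC correction left 4 down. Same-numbered libraries correlated at -0.012, -0.024 and -0.046 here, so no pairing was seen, and the labels state none. With 1 library left out 4 to 8 were down and 0 to 1 up. DESeq2, 12 libraries in 1 fit and no low-count filter called 0 up. For the difference of effects, 36 genes became 188 with DESeq2, 170 with GC correction, 263 with no filter, 258 with the block, 759 with the block and GC correction and 9 to 349 with 1 library left out. Its median over the 30 genes ran from -0.19 to -0.092. Of the genes by themselves, 429 of 450 siDRAIC values and 376 of 449 sihnRNPA2B1 values kept their sign and side of the threshold, and 15 and 30 changed sign. Calls were lost in 0 and 40 and gained in 6 and 3.

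Each estimate that changed sign was uncalled as reported. UNG was at -0.012 for siDRAIC with 12 libraries in 1 fit. CDC45 was at -0.004 with DESeq2, -0.0021 with RLE factors and -0.0015 with 12 libraries in 1 fit for sihnRNPA2B1. With GC correction, alone and with the block, E2F1 was at 0.035 and 0.037, POLA1 at -0.040 and -0.035, RRM1 at -0.032 and -0.033 and SLBP at 0.013 and 0.013. With 1 library left out the siDRAIC ranges were MCM6 -0.10 to 0.094, E2F1 -0.10 to 0.25, CCNE2 -0.40 to 0.083, POLA1 -0.36 to 0.013, RRM1 -0.036 to 0.25, TYMS -0.12 to 0.034 and UNG -0.12 to 0.14. The sihnRNPA2B1 ranges were MCM7 -0.016 to 0.031, CDC6 -0.087 to 0.018, CDC45 -0.073 to 0.039, GINS2 -0.093 to 0.084, E2F1 -0.12 to 0.077, PCNA -0.052 to 0.0005, POLA1 -0.11 to 0.12, PRIM1 -0.12 to 0.086, RRM1 -0.042 to 0.053, RRM2 -0.10 to 0.064 and SLBP -0.066 to 0.0001. The cause of these changes was not tested. Depth limits PCLAF and CCNE2 in the hnRNPA2B1 experiment. Overlapping transcripts on the other strand could add reads to MCM2, MCM7, FEN1, TYMS, CCNE2, CLSPN, GINS2, PRIM1 and RRM1, since the strand setting is unknown. Whatever that setting, genes on the same strand share exon bases with PCLAF (1077, AC087632.1), RRM2 (1077, AC007240.1), PRIM1 (362), POLD3 (123), CHAF1B (89) and FEN1.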
